A study of Arabidopsis thaliana with 12 samples.

Results

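The microRNA (miRNA) family miR396 was followed through 12 small RNA libraries from shoots of Arabidopsis thaliana. Its members are the rows of the deposited count table whose name starts with ath-miR396, which gave 4 of 390 listed names: the 5p and 3p arms of the precursors miR396a and miR396b (written here without the prefix ath-). All 4 were above the filter on low counts and all 4 are described. The plants were of ecotype Col-0, either wild type (WT) or carrying a hasty knockout whose allele the labels do not name, and were 10 days old at harvest. They had 5 days on standard nutrients and then 5 days of treatment, which was low nitrogen (low N) or a control that the labels name without describing its medium. Each genotype in each treatment had 3 libraries, which makes 4 groups, labelled as biological replicates. Seedlings per library are not given, so p-values measure the spread between these libraries.

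A plant miRNA is cut from a hairpin precursor by DCL1, which leaves a duplex of the 5p and the 3p arm. Usually the guide arm of the duplex is loaded into AGO1 and kept, and the other, the passenger arm, is degraded. In miR396 the guide is the 5p arm. It directs the cleavage of messenger RNAs of growth-regulating factors (GRFs), transcription factors that work with GIF coactivators to promote cell proliferation in young leaves, so that miR396 restrains leaf growth. HASTY (HST, AT3G05040) lies at chr3:1401171-1408302 on the minus strand of TAIR10.1. It is related to exportin-5, a nuclear export receptor of animals, and its mutants accumulate altered amounts of many miRNAs. Messenger RNAs of HST, the GRFs and DCL1 are not measured by these libraries, so the genotype was taken from the labels, and no marker of the shoot was available for a check of the tissue.

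The 4 mature sequences are shown because the 3p arms, which moved apart in the libraries, differ at more bases between the precursors than the 5p arms do. They were read from RefSeq's TAIR10.1 at the positions annotated under each name, 5′ to 3′, with bases 2 to 8, the seed, in capitals.
miR396a-5p: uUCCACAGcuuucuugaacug
miR396b-5p: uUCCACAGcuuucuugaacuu
miR396a-3p: gUUCAAUAaagcugugggaag
miR396b-3p: gCUCAAGAaagcugugggaaa
Both 5p arms begin with U, share the seed UCCACAG and are identical at 20 of 21 bases. Counted from 1 at the 5′ end, with the miR396a base first, their only difference was G21U. The 3p arms were identical at 18 of 21 bases and had the substitutions U2C, U7G and G21A, of which U2C and U7G lie in the seed. Known names were compared base by base from the 5′ end, without shifts or gaps, a difference in length counting as mismatches. No other known name in the table then came within 8 mismatches of a miR396 arm. The nearest included miR399a, 9 mismatches from miR396a-5p. Predicted names were not compared. No source used here says how reads were assigned, so a 5p read that ends before base 21 could have been listed under either precursor, and the split between the 5p names is uncertain.

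The precursors show where each arm comes from. Each hairpin is given 5′ to 3′ with both mature arms in capitals, the 5p arm first. MIR396a (AT2G10606) lies at chr2:4142323-4142473 on the minus strand and MIR396b (AT5G35407) at chr5:13611798-13611932 on the plus strand, both of TAIR10.1.
MIR396a: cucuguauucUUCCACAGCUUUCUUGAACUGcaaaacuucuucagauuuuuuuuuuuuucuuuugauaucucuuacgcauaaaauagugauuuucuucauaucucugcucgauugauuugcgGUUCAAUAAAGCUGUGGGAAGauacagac
MIR396b: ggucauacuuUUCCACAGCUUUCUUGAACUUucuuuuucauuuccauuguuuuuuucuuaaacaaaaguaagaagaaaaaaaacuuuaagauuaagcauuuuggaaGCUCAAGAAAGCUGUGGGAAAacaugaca
The arms are 91 bases apart in MIR396a and 75 in MIR396b, and in both folds predicted by RNAfold 18 base pairs joined the 5p to the 3p arm, of which 1 was a G-U pair. The annotation places no other gene over either hairpin: the nearest coding genes of MIR396a are AT2G10608 at 3024 bases and AT2G10602 at 6434 bases, and the nearest of MIR396b is AT5G35405 at 7053 bases.

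Coding sequences were searched for sites that match miR396a-5p in letters. No search was made with miR396b-5p, which differs at its last base, so the order of the sites holds for miR396a-5p only. The reverse complement of miR396a-5p, caguucaagaaagcuguggaa, was compared with the coding strand of 27435 coding sequences, a G-U pair counting as a mismatch and 1 extra base in the target being allowed. At most 3 mismatches and extra bases together were found in 11 genes (0.0401%), of which 7 were among the 9 GRF genes. The others were AT1G23880, AT2G34530, FLU (AT3G14110) and AT5G58980, each with 3 mismatches and no extra base. The closest of the 11 to miR396a-5p were GRF3 (chr2:15271745-15271766, minus strand) and GRF4 (chr3:19617293-19617314, minus strand), with 1 mismatch and 1 extra base. The site of GRF3 is printed as a closest one, and those of GRF1 and GRF9 as examples of sites with 2 mismatches. The extra base is in capitals. In each printed site the next base is the same, so either could be the extra one, and the first is marked.
GRF3: ccguucaagaaagCcuguggaa
GRF1: ucguucaagaaagCcuguggaa
GRF9: acguucaagaaagcUuguggaa
GRF1 (chr2:9729944-9729965, plus strand), GRF2, GRF7, GRF8 and GRF9 (chr2:18746292-18746313, plus strand) had 2 mismatches and 1 extra base. In GRF5 and GRF6 the best windows had 7 and 6 mismatches. Each of the 7 close GRF sites lay within a single exon. Only coding sequences were searched, so sites elsewhere in a transcript could not be found. A match in letters is a description, and no GRF level was measured here.

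The listed counts summed to between 1292752 and 3226269 per library. The table total is not the sequencing depth, since names of near-identical sequence may share reads. Levels are therefore counts per 1000000 listed counts (CPM) after TMM scaling, a scaling that sets most names level between libraries, and every change is relative to the other listed miRNAs. TMM factors ran from 0.861 to 1.21, with the 3 WT control libraries at 1.09 to 1.21. The 4 miR396 names held 3.16% ± 0.43 (SD, n = 3) of listed counts in WT and 3.79% ± 0.24 in hasty under control, beside 2.58% ± 0.45 and 3.59% ± 0.46 under low N. In the 12 libraries miR396a-5p was listed at 29186 to 65761 counts, miR396b-5p at 19660 to 42577, miR396a-3p at 1043 to 4436 and miR396b-3p at 91 to 264. All 4 arms are 21 bases long, so no length correction was needed. Whether ligation and PCR recovered the 4 sequences equally is not known, so levels of different arms are compared as counts only.

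Between genotypes, the 3p arms moved in opposite directions. In hasty shoots miR396b-3p was 3.3-fold higher than in WT in control and 2.5-fold higher in low N, while miR396a-3p was 1.48-fold and 1.52-fold lower. The 5p guide arms were 1.34-fold to 1.44-fold higher in hasty, which passed the test in control and missed it in low N. With the quasi-likelihood test of edgeR and a threshold of 0.05 on the adjusted p, 4 of 4 members were called in control, 3 higher and 1 lower, where 45.8% of all 273 tested names passed (18.7% higher and 27.1% lower). In low N 2 of 4 passed, 1 higher and 1 lower, against 34.8% of all names (11.4% higher and 23.4% lower). A share of calls among 4 names, with the 5p names nearly the same sequence, says little against such backgrounds. The sizes and the order of the libraries are given instead. How many of all tested names separated the genotypes without overlap was not counted, so the lack of overlap is not shown to be particular to miR396. The median change of the 4 was 0.50 (log2) in control and 0.44 in low N, beside 0 for all tested names in both.

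**Figure D1:**
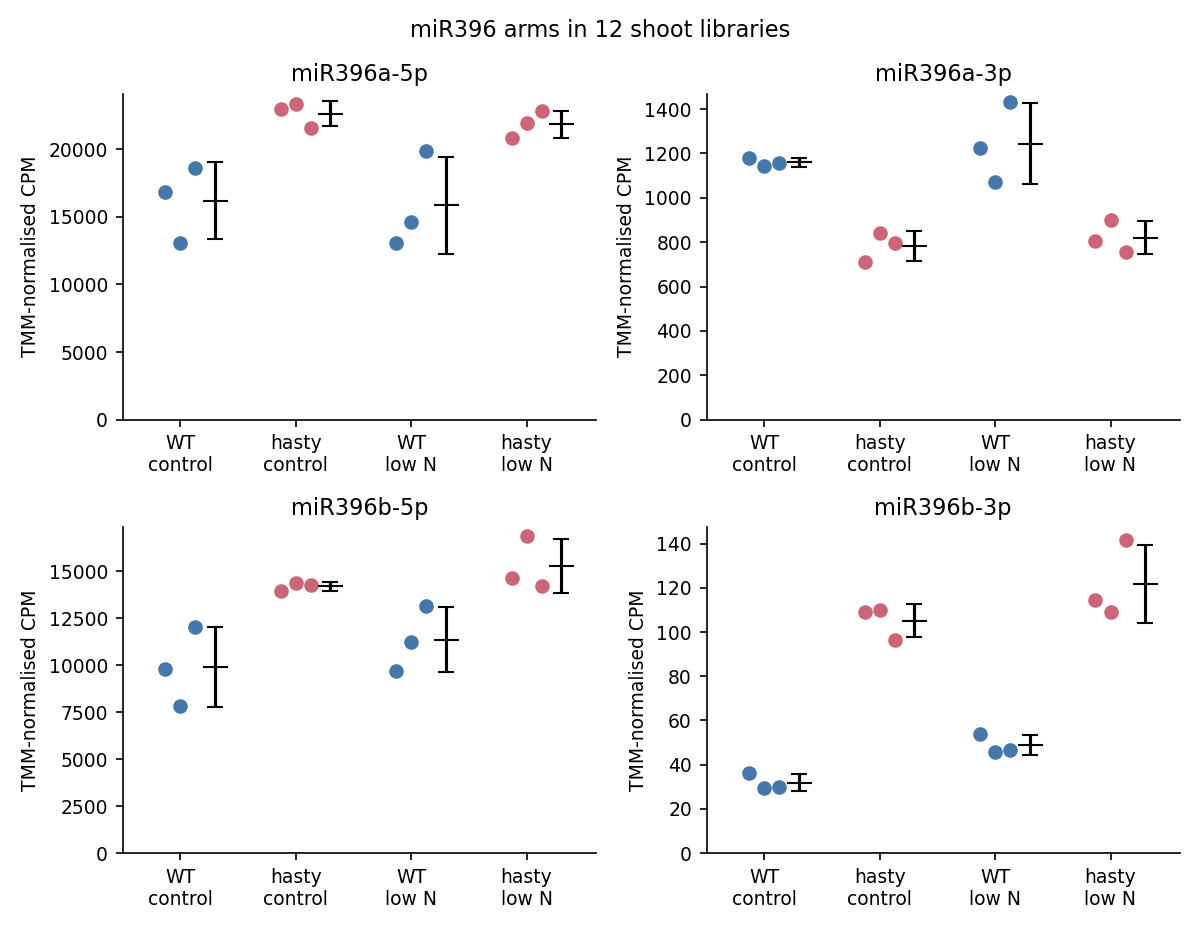
TMM-normalised CPM of the 4 miR396 arms in each library (points, 3 per group) with the group mean and SD (bars), WT in blue and hasty in red, each axis starting at 0. The hasty libraries lie above the WT libraries for miR396a-5p, miR396b-5p and miR396b-3p and below them for miR396a-3p in both nitrogen conditions.

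The guide arm ath-miR396a-5p stood at 16873, 13053 and 18634 CPM in WT control and at 22988, 23334 and 21566 in hasty control, so that the groups did not overlap. The difference was 0.48 ± 0.16 on the log2 scale (SE; adjusted p = 0.035 in edgeR). In low N the values were 13095, 14601 and 19906 CPM in WT and 20825, 21933 and 22806 in hasty, again without overlap, and the difference was 0.46 ± 0.16 (adjusted p = 0.053 in edgeR). The spread was wider among the WT libraries than among the hasty libraries. The control call was lost without 7 of the 12 libraries in turn, with differences of 0.35 to 0.52: WT control 1 or 2, any of hasty control, or hasty low N 2 or 3.

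The guide arm ath-miR396b-5p, which shares its seed with miR396a-5p, followed the same course at a lower level. It stood at 9782, 7811 and 12065 CPM in WT control and at 13932, 14383 and 14293 in hasty control, which is 0.52 ± 0.16 on the log2 scale (SE; adjusted p = 0.022 in edgeR). In low N it was at 9697, 11250 and 13156 CPM in WT and at 14659, 16904 and 14223 in hasty, which is 0.43 ± 0.16 (adjusted p = 0.062 in edgeR). Neither comparison of genotypes showed an overlap of libraries. In low N, upper-quartile factors lowered the differences to 0.24 (adjusted p = 0.25) for miR396a-5p and 0.20 (adjusted p = 0.33) for miR396b-5p (0.36 and 0.31 relative to the median of all names), while median-of-ratios factors raised them to 0.61 and 0.57 (0.47 and 0.43 relative to the median). The control call was lost without WT control replicate 2 (0.38, adjusted p = 0.061) or hasty control replicate 3 (0.52, adjusted p = 0.053). In control, library totals in place of TMM factors ended both 5p calls, with changes of 0.27 (adjusted p = 0.23) for miR396a-5p and 0.31 (adjusted p = 0.088) for miR396b-5p. That scaling moved the median of all names by -0.21, and relative to this median the changes were 0.49 and 0.53.

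The passenger arm ath-miR396a-3p was the member that was lower in hasty. It stood at 1181, 1142 and 1157 CPM in WT control and at 709, 842 and 797 in hasty control. On the log2 scale hasty minus WT was -0.57 ± 0.11 (SE; adjusted p = 0.0026 in edgeR). Under low N it was at 1224, 1071 and 1434 CPM in WT and at 803, 902 and 755 in hasty, a difference of -0.60 ± 0.11 (adjusted p = 0.0019 in edgeR). All 6 hasty libraries lay below all 6 WT libraries. In low N the change was -0.26 (adjusted p = 0.060) when library totals without the miR165 and miR166 names were used, a scaling that moved the median of all names by 0.34, and -0.39 (adjusted p = 0.012) without hasty control replicate 2.

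The rarest member, ath-miR396b-3p, changed most. Its counts were 122, 114 and 105 in WT control, against 234, 264 and 180 in hasty control, although the hasty libraries had lower totals. In CPM these were 36.3, 29.4 and 29.8 in WT and 109, 110.04 and 96.4 in hasty, a log2 difference of 1.72 ± 0.16 (SE; adjusted p = 3.1e-05 in edgeR). In low N it was at 53.9, 45.5 and 46.9 CPM in WT and at 114, 109 and 142 in hasty, a difference of 1.32 ± 0.16 (adjusted p = 0.00017 in edgeR). All 6 hasty libraries lay above all 6 WT libraries. Of 273 tested names, 212 in control and 204 in low N had a smaller difference, whatever its sign. Those with a larger one include 32 names in control and 33 in low N with a log2 change beyond 6. With 91 to 264 counts in a library, its relative counting error is the largest of the 4.

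**Figure D2:**
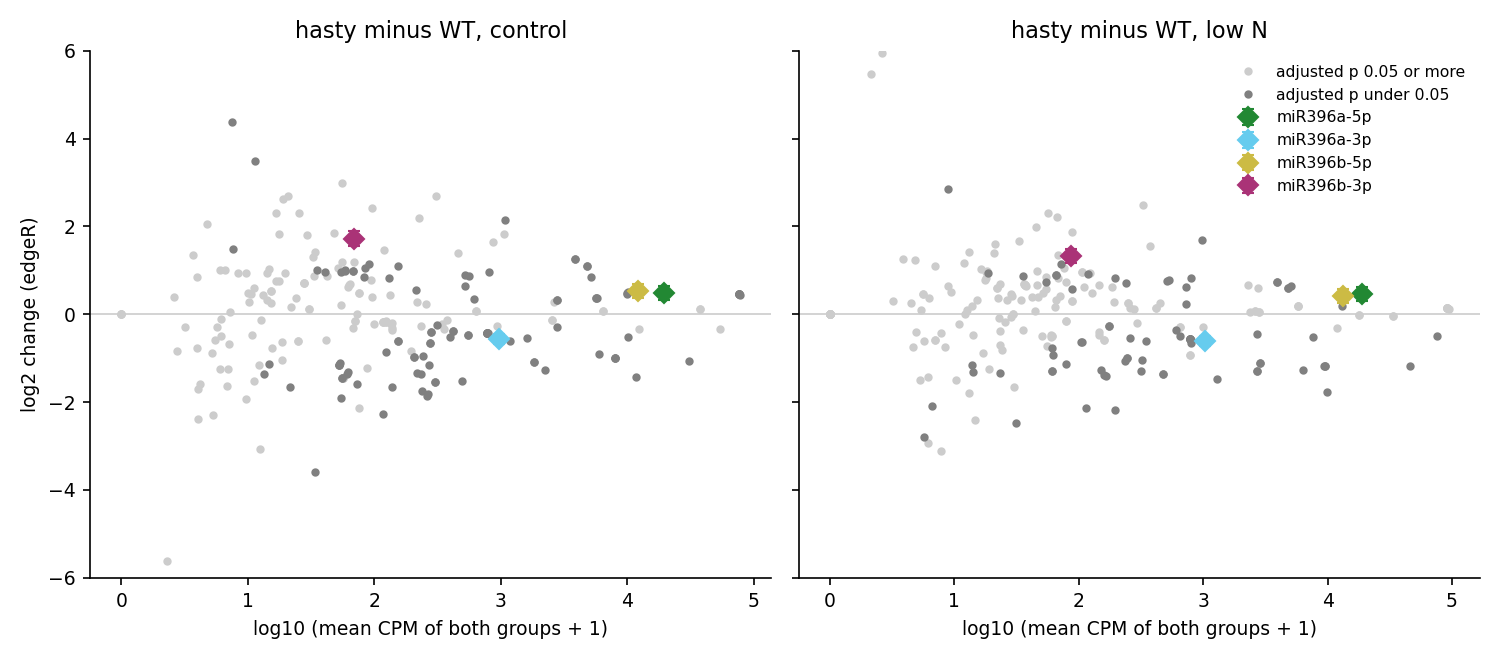
Log2 change between hasty and WT from edgeR (vertical axis) against the mean level of both groups as log10(CPM + 1) (horizontal axis) for all tested names, in control (left) and low N (right), with miR396 members as diamonds and bars for the SE. Points beyond a log2 change of 6 in either direction (32 names in control and 33 in low N) lie outside the axes. The 5p arms sit near the right end, slightly above 0, and the 3p arms lie on opposite sides of 0.

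The arm ratio of each precursor compares arms within a library and so does not depend on library scaling. It does depend on the split of 5p reads between the precursors, which is uncertain. In control the 3p arms changed in hasty by -0.57 (miR396a) and 1.72 (miR396b), beside 0.48 and 0.52 for the 5p arms (log2, edgeR). How far each ratio reflects its own precursor was not tested. The 3p arm of miR396a took 6.54%, 8.05% and 5.85% of the counts of both arms in WT control and 2.99%, 3.48% and 3.57% in hasty control. Under low nitrogen it took 8.55%, 6.83% and 6.72% in WT and 3.71%, 3.95% and 3.203% in hasty. The ratio of 3p to 5p thus fell in hasty by 1.07 ± 0.15 (log2, SE) in control (limma adjusted p = 5e-05) and by 1.08 ± 0.15 in low N (limma adjusted p = 7.4e-05). Expressed as 5p counts for each 3p count, the means were 13.9 ± 2.4 (SD, n = 3) and 29.1 ± 2.9 in control and 12.7 ± 1.8 and 26.8 ± 3.1 in low N, WT first.

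For miR396b the arm ratio moved the other way. Its 3p arm took 0.37%, 0.374% and 0.246% of both arms in WT control and 0.777%, 0.759% and 0.67% in hasty control. Under low nitrogen the shares were 0.553%, 0.403% and 0.355% in WT and 0.774%, 0.641% and 0.987% in hasty. The ratio of 3p to 5p rose in hasty by 1.18 ± 0.21 (log2, SE) in control (limma adjusted p = 0.00027) and by 0.88 ± 0.21 in low N (limma adjusted p = 0.0035). There were 314 ± 80 counts of 5p for each of 3p in WT control and 136 ± 11 in hasty control, and 236 ± 51 and 128 ± 27 in low N (SD, n = 3). The 5p arm thus stayed the arm with more counts in both precursors in all 12 libraries.

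**Figure D3:**
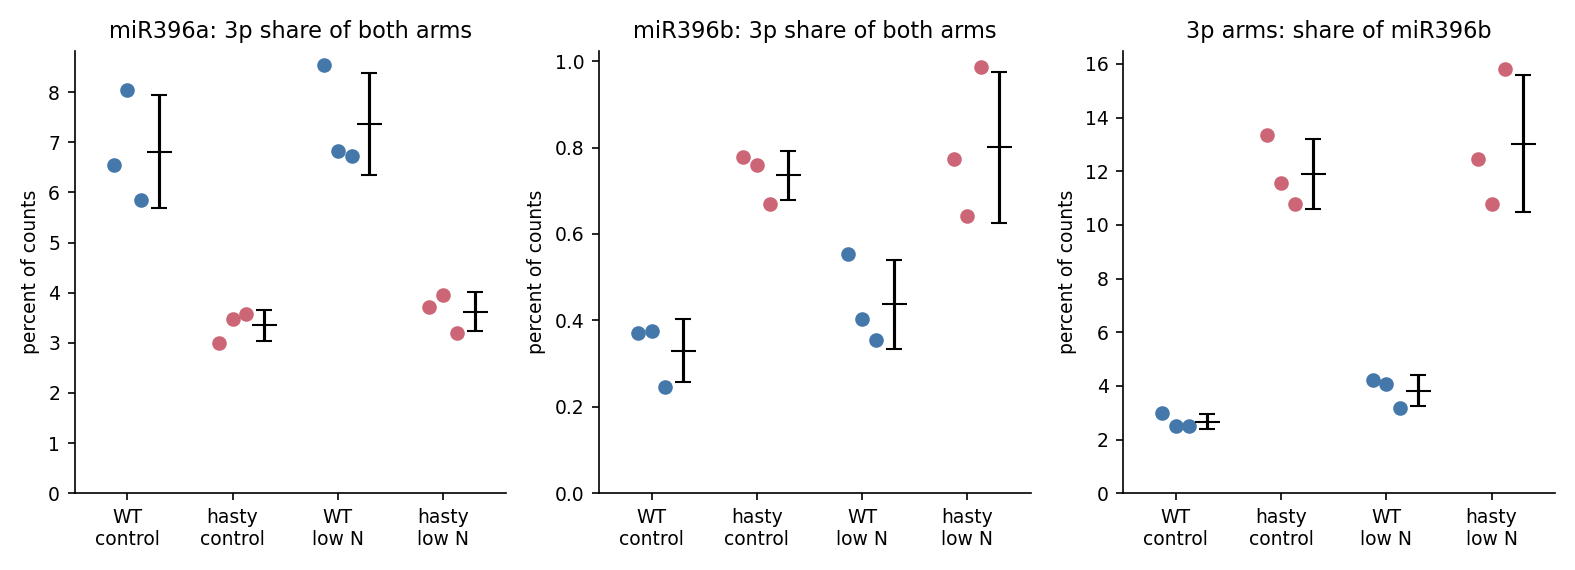
Share of the 3p arm in the counts of both arms of miR396a (left) and of miR396b (middle), and share of miR396b in the counts of both 3p arms (right), in percent for each library (points) with the group mean and SD (bars), WT in blue and hasty in red, axes from 0. The share fell in hasty for miR396a and rose for miR396b, and the share of miR396b in the 3p arms went from 2.67% in WT control to 11.9% in hasty control.

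When genotypes were exchanged within each nitrogen condition, the mean log2 ratio of 3p to 5p differed by -1.07 for miR396a and by 1.03 for miR396b (two-sided exact permutation over 400 assignments, p = 0.005 for both, the smallest possible, and 0.010 adjusted over 6 tests). The 3p arms set against each other gave the widest gap. For each count of miR396b-3p there were 32.5, 38.9 and 38.9 counts of miR396a-3p in WT control and 6.50, 7.65 and 8.27 in hasty control. Under low nitrogen these were 22.7, 23.5 and 30.6 in WT and 7.02, 8.27 and 5.32 in hasty. The ratio of miR396b-3p to miR396a-3p was 4.29-fold higher in hasty over both nitrogen conditions (2.10 on the log2 scale, two-sided exact permutation p = 0.005, adjusted p = 0.010), with all 6 hasty libraries above all 6 WT libraries. The 5p arms kept a closer proportion: under control miR396b-5p was 0.609 ± 0.035 (SD, n = 3) of miR396a-5p in WT and 0.628 ± 0.030 in hasty, and under low N 0.724 ± 0.057 in WT and 0.699 ± 0.074 in hasty. That proportion rests on the uncertain split of 5p reads, was looked at after the other values were seen and was not tested.

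Shifted arm ratios were common in hasty. The same fit over 45 precursors that list both arms called 44.4% of them between genotypes in control, 20% higher and 24.4% lower, and 44.4% in low N, 17.8% higher and 26.7% lower. The median of the size of change over these precursors was 0.81 (log2) in control and 0.76 in low N. The values of miR396a (1.07 and 1.08) and miR396b (1.18 and 0.88) were larger than these medians. Of the 45 precursors, 31 in control and 28 in low N changed less in size than miR396a, and 32 and 24 less than miR396b. With the sign kept, the rise of miR396b ranked 4 from the highest in control and 6 in low N. The fall of miR396a ranked 10 and 12 from the lowest. In control the largest called rise was that of miR393b (2.09 ± 0.27, limma adjusted p = 2.5e-05), a family that acts on auxin receptors, and the largest called fall was that of miR156f (-1.87 ± 0.29, limma adjusted p = 8.7e-05), a family that acts on SPL genes. In low N the corresponding precursors, miR391 and miR173, had arms listed at 0 in WT libraries, so that their ratio rests on the pseudocount and is not given. Over the 38 precursors with both arms above 0 in all 12 libraries, chosen after the data were seen, they were miR393b (1.71 ± 0.28) and, with equal values, miR157a and miR157b (-2.04 ± 0.15 each). Of those 38 precursors 23.7% were called higher and 26.3% lower in control (50% in all), and 18.4% higher and 28.9% lower in low N (47.4% in all). Among the 45, 6 precursors were called higher and 8 lower in both nitrogen conditions, and miR396 was among 3 of 14 families with 2 or more precursors that held a called rise and a called fall, beside miR156 and miR167.

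**Figure D4:**
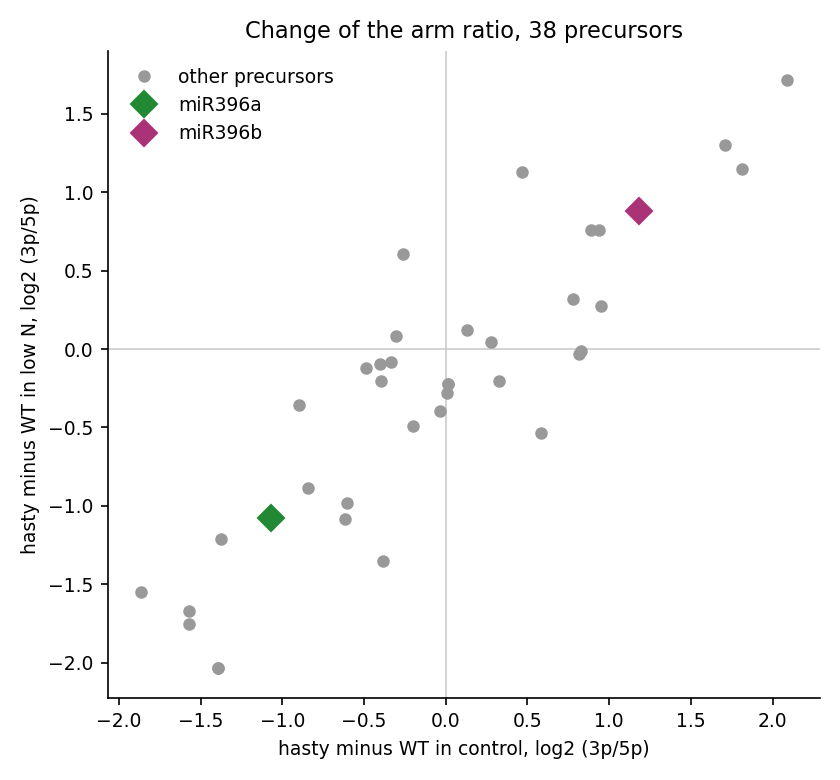
Change of the log2 ratio of 3p to 5p between hasty and WT in control (horizontal) and in low N (vertical) for the 38 precursors with both arms above 0 in all libraries, each point a precursor. miR396a lies at -1.07 and -1.08, and miR396b at 1.18 and 0.88.

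The response to nitrogen was smaller than the difference between genotypes. In WT 1 of 4 members passed the test of low N against control, where 32.2% of all names passed (17.2% higher and 15% lower). This was miR396b-3p, from 31.8 ± 3.9 to 48.8 ± 4.5 CPM (SD, n = 3), a 1.53-fold rise (log2 0.62 ± 0.16 SE, adjusted p = 0.015 in edgeR). Its libraries did not overlap in CPM, but as a share of the table total they did, at 0.00325% to 0.00434% in WT control and 0.00396% to 0.00516% in WT low N. The call was lost with library totals (0.25, adjusted p = 0.45 in edgeR), under which the median of all names moved by -0.33. It was also lost, at differences of 0.46 to 0.57, without WT control 1 or 2, hasty control 2, WT low N 1 or hasty low N 3. The other members in WT differed by 0.099 ± 0.11 (miR396a-3p), -0.029 ± 0.16 (miR396a-5p) and 0.20 ± 0.16 (miR396b-5p), with edgeR adjusted p of 0.60, 0.98 and 0.40. The signs of all 3 changed with the scaling.

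In hasty 0 of 4 members passed in edgeR, limma or DESeq2, against 23.8% of all names in edgeR (8.79% higher and 15% lower), and 0 had an unadjusted p under 0.05 in edgeR. The level of miR396b-3p was 105 ± 7.6 CPM in hasty control and 122 ± 18 in hasty low N (log2 0.21 ± 0.16, adjusted p = 0.44 in edgeR), and its libraries overlapped. The differences of the other 3 were 0.067 ± 0.11 (miR396a-3p), -0.050 ± 0.16 (miR396a-5p) and 0.10 ± 0.16 (miR396b-5p). The interaction, which asks whether the nitrogen response differs between genotypes, was called for 0 of 4 members in edgeR, limma or DESeq2 and for 1.83% of all names in edgeR (0.366% higher and 1.47% lower), with 0 members at an unadjusted p under 0.05. It was -0.40 ± 0.22 (log2) for miR396b-3p, edgeR adjusted p = 0.50. The call of miR396b-3p in WT and not in hasty therefore does not show that the genotypes differed in their response.

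Arm ratios were not called by nitrogen either. In WT the ratio of 3p to 5p differed by 0.13 ± 0.15 (log2, SE) for miR396a and by 0.41 ± 0.21 for miR396b in low N (limma adjusted p = 0.62 and 0.19), where 17.8% of precursors were called (11.1% higher and 6.67% lower). In hasty the differences were 0.12 ± 0.15 and 0.11 ± 0.21 (limma adjusted p = 0.73 and 0.92), where 6.67% were called, all lower. The interaction of the ratios was -0.0080 for miR396a and -0.30 for miR396b (limma adjusted p = 0.97 and 0.65), where 4.44% were called, all lower. The ratio of miR396b-3p to miR396a-3p was 1.26-fold higher in low N over both genotypes (two-sided exact permutation within genotypes, p = 0.060, adjusted p = 0.090).

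Ordered by level, the means of miR396b-3p ran from WT control through WT low N and hasty control to hasty low N. Of these neighbours only the hasty groups overlapped. For miR396a-3p the order was hasty control, hasty low N, WT control and WT low N, where groups of the same genotype overlapped and genotypes did not. The 5p arms were lowest in WT and highest in hasty, and their nitrogen groups overlapped within each genotype. By mean level miR396a-5p ranked between 11 and 14 of 273 tested names in the 4 groups, miR396b-5p between 13 and 21, and miR396a-3p between 45 and 50. The rank of miR396b-3p was 106 in hasty and 137 in WT under low N. Under control it was 122 in hasty and lower still in WT.

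Likeness to other names was measured as the root mean square difference of log2(CPM + 1) over the 12 libraries, after centring each name on its mean. It was taken among 145 other rows above 0 in all libraries, rows of exactly equal counts being taken once. The nearest to miR396a-5p was miR396b-5p at 0.136, followed by miR162a-3p (0.169) and miR162b-3p (0.170), the family that acts on DCL1. The nearness of the 5p arms rests on the uncertain split of 5p reads. Both miR162 names had nearly equal means (4961 and 4992 CPM in WT control), so they may not be separate measurements. For miR396b-5p the order was miR396a-5p, miR162a-3p (0.169) and miR162b-3p (0.170). The nearest to miR396a-3p were miR172b-5p (0.138) and miR172e-5p (0.153), arms of a family that acts on AP2-like genes, and miR156e (0.163). Nothing came as close to miR396b-3p, whose nearest were miR157b-5p (0.348), NovelmiRNA-41 (0.371), a predicted name, and miR858a (0.379). The 3p arms of the precursors differed from each other by 1.07.

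Other families that act on leaf growth or shape served as a comparison list: miR164, which acts on CUC-type NAC genes, miR165 and miR166, which act on HD-ZIP III genes, and miR319, which acts on TCP genes, upstream of miR396 in leaves. All 21 listed names of these families were tested, but they hold only 11 distinct mature sequences, so they are not separate measurements. Between genotypes 12 were called higher and 7 lower in control (median log2 change 0.46), where 18.7% of all names were higher and 27.1% lower. In low N 3 were higher and 4 lower (median 0.13), against 11.4% and 23.4% of all names. Of the most abundant of each family in control, miR164b-5p fell from 2491 ± 162 to 1169 ± 31 CPM (SD, n = 3; log2 -1.09 ± 0.066 SE, adjusted p = 2.7e-06 in edgeR). In the other direction miR165a-3p changed by 0.47 ± 0.14, miR166a-3p by 0.44 ± 0.11 and miR319a by 0.36 ± 0.084 (edgeR adjusted p = 0.020, 0.0079 and 0.0065). With low N, 14 of the 21 rose in WT, where 17.2% of all names rose, and 7 in hasty, where 8.79% did (medians 0.45 and 0.26, those of miR396 being 0.15 and 0.085 and those of all names 0.064 and -0.052). There miR165a-3p rose by 1.11 ± 0.14 in WT (adjusted p = 0.00029 in edgeR), beside -0.029 ± 0.16 for miR396a-5p. These sizes shift with the scaling as those of the miR396 names do.

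**Figure D5:**
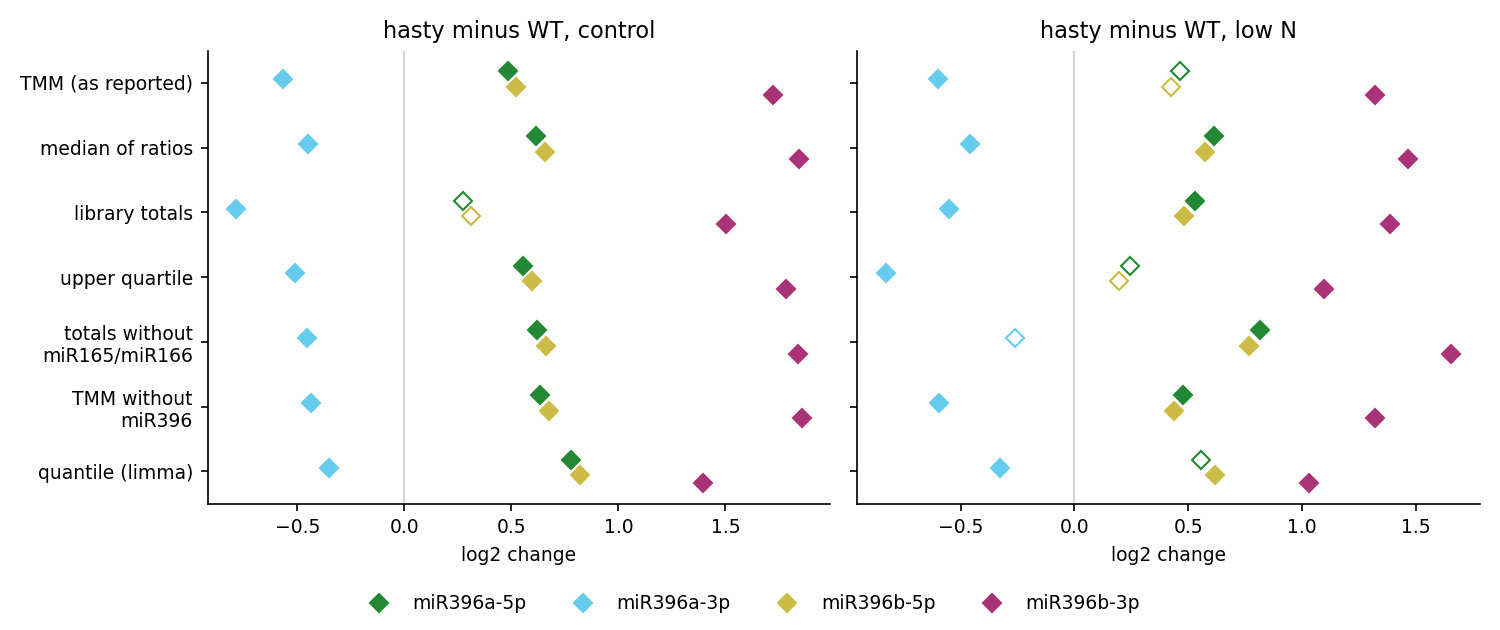
Log2 change between hasty and WT of the 4 miR396 arms under 7 ways of scaling the libraries, in control (left) and in low N (right). Filled diamonds passed an adjusted p of 0.05 and open ones did not; miR396b-3p stayed to the right and miR396a-3p to the left of 0 under each, while calls of the 5p arms came and went.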

How the data were processed

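Small RNA was ligated to adapters and amplified by PCR, per the labels' protocols, with no molecular identifiers named. The values the authors deposited under the name TPM are counts: whole numbers whose sums differ between libraries. No source used here names the aligner, counter or miRNA annotation. The only build in the submitters' processing notes is mm10, a mouse assembly, and the listed names are those of Arabidopsis. Positions and sequences are RefSeq's TAIR10.1 (216 of 216 known names matched by product name).

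Here the counts of all 12 libraries were filtered with filterByExpr (273 names), scaled with TMM and fitted with edgeR 4.0.16 in R 4.3.3 (glmQLFit, glmQLFTest, two-sided, 1 coefficient per group, 8 residual degrees of freedom). Adjusted p-values are Benjamini-Hochberg over all tested names, with a threshold of 0.05. The SE is the change divided by the square root of F, so it restates the test. Arm ratios were log2((3p + 0.5)/(5p + 0.5)), fitted with limma 3.58.1 over the 45 precursors with a mean of at least 10 counts in each arm. Hairpins were folded with RNAfold 2.7.2. On counts simulated for hasty against WT in control, edgeR called 12 of 30 names changed by 1 on the log2 scale, of 273. It called 19 of 30 changed by 2, and limma called 10 of 12 ratios changed by 1.5, of 45. A difference that was not called may therefore still be present. The changed names and precursors were drawn at random from all tested ones, so these rates are not those of the miR396 names. Alternatives used other scalings, filters, pseudocounts, DESeq2 1.42.0, a replicate block and each library left out. Comparisons that share a group share its libraries.

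Members, lists and tests were chosen with earlier results of these data known. The named names are the miR396 rows, the 3 nearest to each by profile, the most abundant name of each listed leaf family and the precursors with the largest called change of arm ratio. Intervals and SEs do not cover errors of read assignment.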

Additional observations from a re-analysis of the deposited data

How the results depend on the processing

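Across alternatives, miR396b-3p stayed higher and called in hasty in both nitrogen conditions (log2 1.39 to 1.86 in control, 1.03 to 1.66 in low N), the arm ratio of miR396a stayed lower and that of miR396b higher, both called, in all of theirs, and miR396a-3p stayed lower and called except in low N with library totals without miR165 and miR166 names (-0.26). For the 5p arms in control, calls were lost with library totals (0.27 for miR396a-5p, 0.31 for miR396b-5p) and, for miR396a-5p, when names under 10 CPM on average were left out (0.38). In low N the 5p calls were gained, for miR396a-5p and miR396b-5p in turn, with no filter (0.70 and 0.66), at least 10 CPM (0.45 and 0.41), median-of-ratios factors (0.61 and 0.57), library totals (0.53 and 0.48), totals without miR165 and miR166 (0.82 and 0.77), identical rows counted once (0.49 and 0.45), DESeq2 (0.61 and 0.57), the compared groups alone (0.52 and 0.48) and scaling without the miR396 names (0.48 and 0.44). They were also gained for miR396a-5p with limma on log2(CPM + 1) (0.48) and for miR396b-5p with quantile normalization (0.62). These last 2 scalings, without miR396 and by quantiles, and the restriction of precursors to arms above 0 were chosen after seeing the data. With upper-quartile factors the low N differences of the 5p arms were smaller and not called (0.24, adjusted p = 0.25 for miR396a-5p, and 0.20, adjusted p = 0.33 for miR396b-5p). Causes were not tested.

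The replicate number as a block gained a call for miR396a-5p in low N (0.48, adjusted p = 0.048) and changed no other call of members or ratios. Deviations of same-numbered libraries correlated at -0.31 to 0.40 (median 0.048), over 0.1 in 7 of 18 pairs. Differently numbered libraries gave -0.36 to 0.24 (median -0.0027), over 0.1 in 9 of 36 pairs. The ranges overlapped, and the numbers were not taken as pairs.

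In WT the low N call of miR396b-3p was lost with no filter (0.47), at least 10 CPM (0.60), library totals (0.25), upper-quartile factors (0.51), totals without miR165 and miR166 (0.41) and the compared groups alone (0.50). For miR396b-5p it was gained with identical rows counted once (0.32) and scaling without miR396 (0.40), and its sign turned with library totals (-0.16) and quantiles (-0.064). The sign of miR396a-3p turned with no filter (-0.053), library totals (-0.26), upper quartiles (-0.012), totals without miR165 and miR166 (-0.12) and the compared groups alone (-0.031), and that of miR396a-5p with median-of-ratios factors or DESeq2 (0.020), identical rows once (0.082) and scaling without miR396 (0.16). In hasty, upper-quartile factors gave miR396a-5p -0.44 and miR396a-3p -0.33, both called, miR396b-3p -0.17 and miR396b-5p -0.30, while the median of all names moved by -0.40. There miR396a-3p also turned with library totals (-0.025), miR396b-5p with quantiles (-0.27), and miR396a-5p with no filter (0.056), at least 10 CPM (0.024), median-of-ratios factors or DESeq2 (0.016), identical rows once (0.019), the compared groups alone (0.0045) and scaling without miR396 (0.0074). Interactions, none called in any alternative, turned sign with no filter (0.22 for miR396a-3p, 0.23 for miR396a-5p, 0.15 for miR396b-5p), at least 10 CPM (0.063 and 0.067 for the miR396a arms), library totals (0.24, 0.26 and 0.17) and totals without miR165 and miR166 (0.19, 0.20 and 0.10).

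With each library left out in turn, ranges in hasty against WT were 0.35 to 0.60 (control) and 0.34 to 0.68 (low N) for miR396a-5p, and 0.38 to 0.69 and 0.32 to 0.64 for miR396b-5p. The control call of miR396a-5p was lost without WT control replicate 1 or 2, any hasty control replicate, and without replicate 2 or 3 of hasty low N, and that of miR396b-5p without WT control replicate 2 or hasty control replicate 3. The low N rise of miR396b-3p in WT ranged from 0.46 to 0.66 and was lost without WT control replicate 1 or 2, hasty control replicate 2, the first WT low N library or the last hasty low N library (replicate 3). In low N the 5p calls were gained in 5 of 12 cases for miR396a-5p and in 6 for miR396b-5p. Without hasty low N replicate 2 the nitrogen difference of miR396b-3p over miR396a-3p passed (0.41, adjusted p = 0.0375). It ranged from 0.25 to 0.41. Signs that turned were those of uncalled differences between nitrogen conditions: in WT -0.060 to 0.20 for miR396a-3p and -0.23 to 0.092 for miR396a-5p, in hasty -0.0066 to 0.21 and -0.14 to 0.066, and -0.058 to 0.26 for the arm ratio of miR396b. Interactions ranged from -0.13 to 0.24 for miR396a-3p, -0.14 to 0.22 for miR396a-5p, -0.27 to 0.12 for miR396b-5p and -0.14 to 0.11 for the arm ratio of miR396a.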
